A study of Bos taurus with 4 samples.

Results

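Genes that are widely used as internal references in quantitative PCR, here the 4 genes ACTB, GAPDH, YWHAZ and RPLP0, were followed in bovine mammary tissue and lymphocytes. They were taken by identifier (ENSBTAG00000026199, ENSBTAG00000014731, ENSBTAG00000000236 and ENSBTAG00000012003 in that order) from a table of 24616 gene rows, and all 4 were found in it. The table itself carries no gene names. The symbols were supplied with the identifiers, and the RefSeq gene table used here lists the 4 symbols but no Ensembl identifier, so their pairing was not checked. RNA sequencing libraries came from 2 sources, with 2 libraries each: mammary tissue from animals labelled female and lymphocytes from animals labelled male, all of the breed written Hostein in the labels. Sex therefore cannot be told apart from source, and neither can the mark "dup" in both mammary titles, which the labels do not explain. Neither age, lactation stage, treatment nor the number of animals is given, so the p-values speak only of how these libraries varied, and that variation may be technical. Tissue markers could not be looked up without gene names, so the labelled sources were not checked against them.

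A reference gene serves to cancel differences in the amount of RNA between samples: the gene of interest is divided by it, and the result holds only as far as the reference keeps the same level everywhere. ACTB encodes beta-actin, a protein of the cytoskeleton that is abundant in motile cells. GAPDH encodes a glycolytic enzyme, YWHAZ the zeta form of the 14-3-3 adaptor proteins that bind phosphorylated partners, and RPLP0 a protein of the stalk of the large ribosomal subunit. Beta-actin has a near-identical cytoplasmic relative, gamma-actin, and GAPDH and ribosomal protein genes have many processed copies in mammalian genomes. How reads shared by related genes or copies were assigned is not given in the sources used here. The values of ACTB, GAPDH, YWHAZ and RPLP0 are therefore uncertain in that respect.

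The values are FPKM, fragments scaled by transcript length and by the mapped fragments of the library, so levels of different genes can be compared per length. Depth is unknown, since FPKM keeps no read count. FPKM sums ranged from 828745 to 1536182 per library, and the median of the 8305 rows at 1 FPKM or more in all 4 libraries (called common rows below) ranged from 3.78 FPKM in mammary replicate 2 to 14.2 FPKM in lymphocyte replicate 2. The median was 9.48 FPKM in mammary replicate 1 and 10.5 FPKM in lymphocyte replicate 1. Mammary replicate 2 thus stood apart by the low level of most of its rows, but not to the same extent in all. Over the common rows, the log2 ratio of mammary replicate 2 to replicate 1 had quartiles of -1.72 and -0.86. The values as deposited are not adjusted for this, and its cause was not tested. For this reason each gene is given both as FPKM and as its ratio to the library median of the common rows.

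All 4 genes were abundant in every library, above 94.4% to 99.8% of the common rows, and all 4 had lower FPKM in both mammary libraries than in both lymphocyte libraries. ACTB reached 799 FPKM in mammary replicate 1 and 190.1 in mammary replicate 2, against 3672 FPKM in lymphocyte replicate 1 and 2494 in lymphocyte replicate 2. The lower lymphocyte value was 3.12 times the higher mammary value, the widest gap of the 4 genes. GAPDH was at 235 and 62.0 FPKM in the mammary replicates and at 475 and 534 FPKM in the lymphocyte replicates. The lymphocyte libraries were close to each other, whereas mammary replicate 1 was 3.80 times replicate 2. YWHAZ was the lowest of the 4 genes in every library, at 101 and 36.3 FPKM in the mammary replicates and 155 and 205 FPKM in the lymphocyte replicates. RPLP0 was at 322 and 319 FPKM in the mammary replicates and 411 and 714 FPKM in the lymphocyte replicates. Its mammary values were nearly equal, in contrast to the other genes, and its groups lay closest, with the lower lymphocyte value 1.28 times the higher mammary value. In bulk samples, fewer cells of a type and less RNA per cell cannot be told apart.

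**Figure D1:**
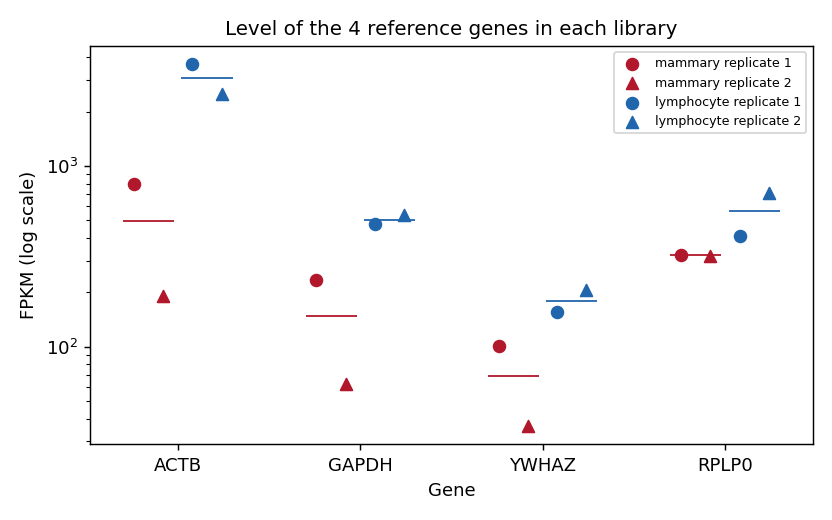
FPKM (log axis) of ACTB, GAPDH, YWHAZ and RPLP0 in each of the 4 libraries; points are single libraries and short lines are means of 2 libraries. Every lymphocyte point lies above both mammary points of the same gene, and mammary replicate 2 lies well below mammary replicate 1 except for RPLP0, at 319 and 322 FPKM.

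The order of the 4 genes was not the same in each library. Mean levels in mammary tissue were 494 ± 430.3 FPKM for ACTB, 321 ± 2.58 for RPLP0, 149 ± 123 for GAPDH and 68.6 ± 45.7 for YWHAZ (SD, n = 2). In this order ACTB and RPLP0 did not differ beyond their spread, because the ACTB values lay on either side of both RPLP0 values. The ranges of GAPDH and YWHAZ overlapped between libraries. Within the same library GAPDH was the higher, at 2.33 and 1.71 times YWHAZ in mammary replicates 1 and 2. In lymphocytes the means were 3083 ± 833 FPKM for ACTB, 563 ± 214 for RPLP0, 504 ± 41.3 for GAPDH and 179.9 ± 35.5 for YWHAZ (SD, n = 2). The GAPDH values lay between the RPLP0 values there, so these neighbours did not differ beyond their spread either. ACTB stood highest in 3 libraries, and RPLP0 stood highest in mammary replicate 2. Among all 24616 rows, ACTB held ranks 87 and 172 in the mammary libraries (replicate 1 first) and ranks 16 and 26 in the lymphocyte libraries. The ranks of RPLP0 ran from 107 to 178 over the 4 libraries, without separation of the sources. GAPDH ranked 219 and 351 in mammary tissue against 129 and 141 in lymphocytes, and YWHAZ 384 and 516 against 289 and 293.

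The comparison between sources was tested with limma on log2(FPKM + 1) of the 12311 rows that reached 1 FPKM in at least 2 libraries, a filter that all 4 genes passed. ACTB was lower in mammary tissue by a log2 difference of -2.95 (SE 0.93, 95% interval -4.77 to -1.14), which passed the threshold of 0.05 at a limma adjusted p = 0.011. GAPDH had a log2 difference of -2.05 (95% interval -3.82 to -0.28) and missed the threshold, at a limma adjusted p = 0.099. For YWHAZ the log2 difference was -1.54 (95% interval -3.28 to 0.20, limma adjusted p = 0.23). For RPLP0 it was -0.76 (95% interval -2.54 to 1.03, limma adjusted p = 0.56). These wide intervals rest on the spread typical of rows at each gene's level, not on the gene's own replicates. They do not show that the last 3 genes were at the same level in both sources. Among all rows tested, 19.2% were called, 10.7% as lower in mammary tissue, and in 52.7% both mammary libraries lay below both lymphocyte libraries. The 1 call among the 4 genes and their 4 separations of 4 are read against those shares. The median of the 4 log2 differences was -1.79, against -0.81 for all rows tested, of which 76.3% had a lower mean in mammary tissue. The difference of ACTB was lower than that of all but 3.79% of rows, while 9.79% lay lower than GAPDH, 19.0% lower than YWHAZ and 52.6% lower than RPLP0. The call of ACTB depended on the scaling and on which libraries were kept. After rescaling to a common FPKM total the call held (log2 difference -3.66, limma adjusted p = 4.0e-05). It was lost after median-of-ratios scaling (log2 difference -1.95, limma adjusted p = 0.068) and after quantile normalization (-3.05, limma adjusted p = 0.052). It was also lost without mammary replicate 2, where the difference was -1.92. Without lymphocyte replicate 1 or 2 the difference stayed near -2.95, at -2.67 and -3.23. The call was lost there too, but few of all rows tested were called in those fits.

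Dividing each gene by the library median of the common rows narrowed the mean differences between sources for all 4 genes, and for RPLP0 it brought the sources to overlap. ACTB stood at 84.3 and 50.3 times the library median in the mammary replicates and at 349.8 and 176 times in the lymphocyte replicates, replicate 1 first. The lowest lymphocyte ratio was 2.09 times the highest mammary ratio. GAPDH stood at 24.9 and 16.4 times the median in the mammary replicates and at 45.3 and 37.6 times in the lymphocyte replicates. YWHAZ stood at 10.7 and 9.61 times in mammary tissue and at 14.7 and 14.5 times in lymphocytes, and so had the narrowest range over the 4 libraries, a factor of 1.53 from lowest to highest. RPLP0 stood at 34.0 times the median in mammary replicate 1 but at 84.3 times in replicate 2, and at 39.2 and 50.3 times in the lymphocyte replicates. Both lymphocyte ratios of RPLP0 lay between its mammary ratios. ACTB spanned a factor of 6.96 over the 4 libraries on this scale, GAPDH 2.76 and RPLP0 2.48. As FPKM the factors were 19.3 for ACTB, 8.61 for GAPDH, 5.64 for YWHAZ and 2.24 for RPLP0. The range of RPLP0 thus widened, while those of the other genes narrowed.

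**Figure D2:**
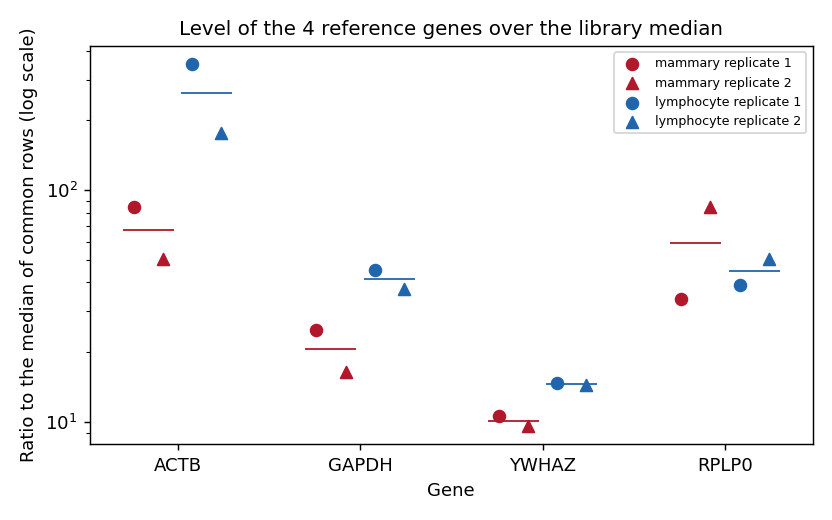
Ratio of each gene to the median FPKM of the 8305 common rows of the same library (log axis), with single libraries as points and means of 2 libraries as short lines. YWHAZ stays between 9.61 and 14.7, ACTB runs from 50.3 to 349.8, and the RPLP0 points of both sources overlap.

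On this scale none of the 4 genes passed the threshold. Among all 12311 rows tested 20.6% did, 8.09% as lower in mammary tissue. With only 4 genes, the absence of a call does not set them apart from other rows. ACTB had a log2 difference, mammary minus lymphocyte, of -1.93 (SE 0.52, 95% interval -3.33 to -0.52, limma adjusted p = 0.068). The difference of GAPDH was -1.03 (95% interval -1.96 to -0.09, limma adjusted p = 0.11) and that of YWHAZ was -0.52 (95% interval -1.21 to 0.16, limma adjusted p = 0.21). RPLP0 turned to a positive difference of 0.27 (95% interval -1.18 to 1.72, limma adjusted p = 0.74). That sign was not stable: without mammary replicate 2 the difference of RPLP0 was -0.38 (limma adjusted p = 0.42), against the median of rows at 10 FPKM or more it was -0.060 (limma adjusted p = 0.93), and without mammary replicate 1 it was 0.92 (limma adjusted p = 0.15). Both mammary libraries lay below both lymphocyte libraries for 3 of the 4 genes, against 35.6% of all rows tested. The median of the 4 differences was -0.78, against 0.00 for all rows, a value that division by the library median largely sets. Without mammary replicate 2, the library with the lowest median, ACTB, GAPDH and YWHAZ had log2 differences of -1.56, -0.73 and -0.45 on this scale (limma adjusted p = 0.22, 0.19 and 0.20).

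**Figure D3:**
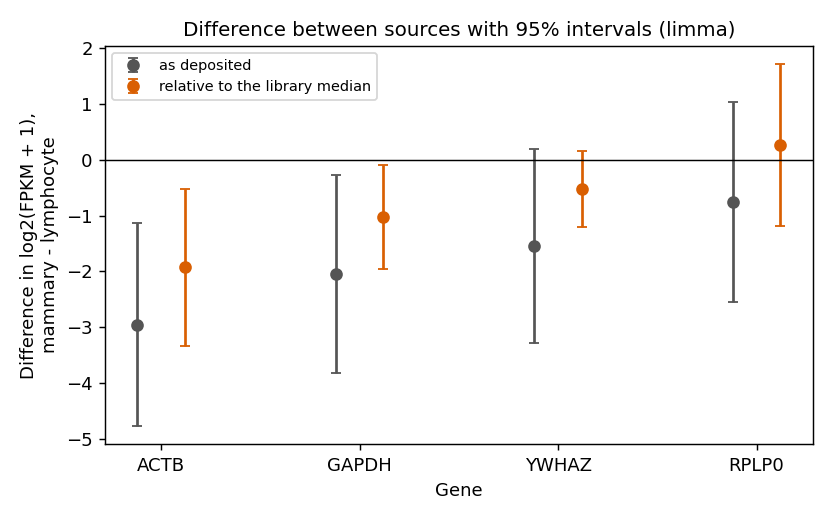
Difference in log2(FPKM + 1), mammary minus lymphocyte, with unadjusted 95% intervals from limma, for FPKM as deposited and for FPKM scaled to a common library median. As deposited the differences run from -2.95 for ACTB to -0.76 for RPLP0; scaled, they run from -1.93 to 0.27.

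Replicates of one source also differed by gene. In mammary tissue the median common row was 2.47 times as high in replicate 1 as in replicate 2. ACTB was 4.20 times, GAPDH 3.80 times and YWHAZ 2.78 times as high in replicate 1, while RPLP0 was 1.01 times as high. Relative to the library median, RPLP0 was therefore 2.48 times as high in mammary replicate 2, and 93.6% of common rows had a lower ratio of replicate 2 to replicate 1. In lymphocytes the median common row was 1.40 times as high in replicate 2, and RPLP0 was 1.74 times as high there, with 82.0% of common rows at a lower ratio. ACTB went the other way in lymphocytes, with replicate 1 at 1.47 times replicate 2, and only 4.30% of common rows had a lower ratio of replicate 2 to replicate 1. YWHAZ was close to the median common row in both sources, with 39.6% and 39.4% of common rows lower. With 2 libraries in each source, whether these replicate differences recur was not tested.

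The standard deviation of log2 FPKM over all 4 libraries gave a different order of steadiness on each scale. As deposited it was 0.54 for RPLP0, 1.09 for YWHAZ, 1.43 for GAPDH and 1.92 for ACTB, with a median of 0.93 over the common rows. A smaller value was found in 13.7% of common rows for RPLP0 and in 95.1% for ACTB. The low place of RPLP0 depended on mammary replicate 2, without which the values were 0.51 for YWHAZ, 0.59 for RPLP0, 0.64 for GAPDH and 1.14 for ACTB. Without lymphocyte replicate 2 the value of RPLP0 was 0.21. Relative to the library median it was 0.31 for YWHAZ, 0.58 for RPLP0, 0.65 for GAPDH and 1.22 for ACTB, with a median of 0.47 over the common rows. On that scale 28.5% of common rows varied less than YWHAZ, 60.3% less than RPLP0, 66.3% less than GAPDH and 88.5% less than ACTB. Among the common rows at 10 FPKM or more in all 4 libraries, which are nearer the 4 genes in level, the shares were 26.4%, 57.9%, 65.5% and 90.2%. Without mammary replicate 2 the standard deviation of RPLP0 relative to the median was 0.29, close to the 0.26 of YWHAZ, while ACTB remained at 1.03. The step from YWHAZ to RPLP0 thus rested largely on mammary replicate 2.

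Ratios of one reference gene to another do not depend on how a library is scaled, so they show whether the genes moved together. ACTB over GAPDH was 3.39 and 3.07 in the mammary replicates and 7.73 and 4.67 in the lymphocyte replicates, replicate 1 first. ACTB over YWHAZ was 7.91 and 5.23 in mammary tissue and 23.7 and 12.2 in lymphocytes. ACTB was thus higher against both genes in each lymphocyte library than in each mammary library. GAPDH over YWHAZ was the steadiest ratio, at 2.33 and 1.71 in mammary tissue and 3.07 and 2.60 in lymphocytes, a factor of 1.80 from lowest to highest. ACTB over RPLP0 was the least steady, at 2.48 and 0.596 in the mammary replicates and 8.93 and 3.49 in the lymphocyte replicates, a factor of 15.0. GAPDH over RPLP0 was 0.730 and 0.194 in mammary tissue and 1.16 and 0.747 in lymphocytes. YWHAZ over RPLP0 was 0.313 and 0.114 in mammary tissue and 0.377 and 0.287 in lymphocytes, and its sources overlapped. In all 3 ratios to RPLP0, mammary replicate 2 held the lowest value.

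**Figure D4:**
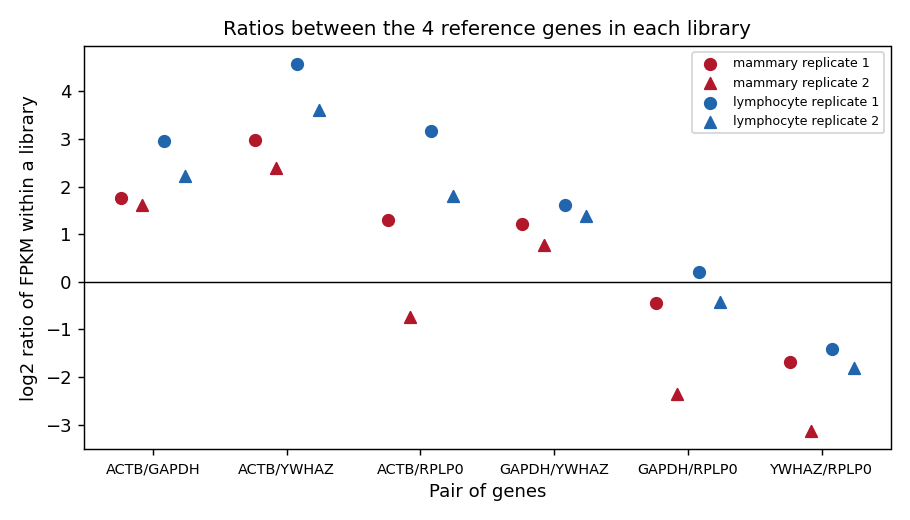
log2 ratio of FPKM within a library for the 6 pairs of genes; each point is 1 library. The sources are apart in 5 pairs and overlap for YWHAZ/RPLP0, and mammary replicate 2 lies lowest in every pair.

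Over the 6 pairs, the log2 ratio differed between sources, mammary minus lymphocyte, by -0.90 for ACTB/GAPDH, -1.40 for ACTB/YWHAZ, -2.20 for ACTB/RPLP0, -0.50 for GAPDH/YWHAZ, -1.30 for GAPDH/RPLP0 and -0.80 for YWHAZ/RPLP0. The sources did not overlap in 5 of the 6 pairs. That separation is common with these denominators: of the other common rows, the ratio to ACTB was apart between sources in 90.3%, the ratio to GAPDH in 79.1%, the ratio to YWHAZ in 72.1% and the ratio to RPLP0 in 38.9%. A two-sided exact permutation test over the libraries gave p = 0.33 for each of the 5 pairs, the smallest that 2 against 2 allows, and p = 0.67 for YWHAZ/RPLP0 (0.40 and 0.67 after adjustment over the 6 pairs). This permutation test therefore cannot reach 0.05 with 2 libraries against 2. Limma fits of all 12311 rows divided by a reference gene were added after seeing the data, and no pair passed 0.05 in them. ACTB had a log2 difference of -2.20 divided by RPLP0 (limma adjusted p = 0.052) and -1.40 divided by YWHAZ (limma adjusted p = 0.12). The limma adjusted p was 0.28 for ACTB/GAPDH, 0.32 for GAPDH/YWHAZ, 0.38 for GAPDH/RPLP0 and 0.71 for YWHAZ/RPLP0. Leaving out mammary replicate 2 moved the pair differences to -0.07 for YWHAZ/RPLP0, -0.35 for GAPDH/RPLP0, -1.17 for ACTB/RPLP0 and -0.28 for GAPDH/YWHAZ. Without mammary replicate 1 the pair YWHAZ/RPLP0 stood at -1.53 and GAPDH/RPLP0 at -2.26. Without lymphocyte replicate 1 the pairs ACTB/GAPDH and ACTB/YWHAZ stood at -0.54 and -0.92. The mean standard deviation of a gene's log2 ratios to the other 3 genes was 0.69 for both YWHAZ and GAPDH, 1.05 for ACTB and 1.17 for RPLP0. By this measure RPLP0 was the least steady of the 4 genes, but that place rested on mammary replicate 2. Without that library the mean was 0.51 for RPLP0 and 0.79 for ACTB, which was then the least steady, and 0.40 for YWHAZ and 0.39 for GAPDH.

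What each gene does as a denominator was read from the 8305 common rows. As deposited, the median common row had a log2 difference of -0.996, mammary minus lymphocyte, with 489 rows over 2-fold higher in mammary tissue against 4132 in lymphocytes. Divided by ACTB, the median moved to 1.96, and 7267 rows (87.5%) were over 2-fold higher in mammary tissue against 103 in lymphocytes. Division by GAPDH put the median at 1.06, with 4399 rows over 2-fold higher in mammary tissue and 279 in lymphocytes. Division by YWHAZ put it at 0.56, with 2642 and 486 rows. Division by RPLP0 put it at -0.24, with 1094 and 1446 rows, so of the 4 genes it alone left more rows over 2-fold higher in lymphocytes. The geometric mean of the 4 genes, a usual combined reference, put the median at 0.84, with 3499 and 348 rows, and the library median of the common rows gave 1476 and 933. The choice among these 4 genes thus moved the median common row over a range of 2.20 on the log2 scale, the size of the ACTB/RPLP0 difference, which was -1.17 without mammary replicate 2 and -3.23 without mammary replicate 1. The counts with RPLP0 depended on the mammary libraries: they were 1999 and 515 when mammary replicate 2 was left out, and 725 and 3759 when replicate 1 was. As deposited, leaving out mammary replicate 2 gave 884 and 1697 rows. Without mammary replicate 1 the mammary count as deposited was 319, and without lymphocyte replicate 1 the lymphocyte count with ACTB was 195.

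**Figure D5:**
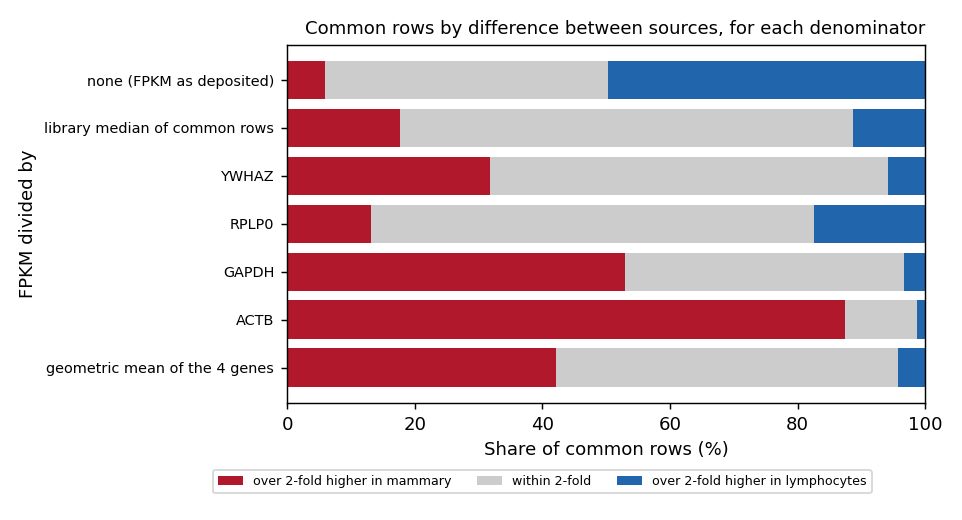
Share of the 8305 common rows (percent) whose mean log2 value differed between sources by more than 2-fold in either direction or less, after FPKM was divided by each denominator. Rows over 2-fold higher in mammary tissue make up 87.5% with ACTB and 13.2% with RPLP0.

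The number of rows called by limma moved with the denominator as well. Of the 12311 rows tested, division by ACTB left 5693 called with the mammary level higher and 233 with the lymphocyte level higher. The numbers were 3224 and 524 with GAPDH, 2347 and 660 with YWHAZ, 1269 and 702 with RPLP0, and 3306 and 566 with the geometric mean of the 4 genes. As deposited they were 1051 and 1312. These fits share all 4 libraries, so the counts are not independent of each other. The spread that limma used for the median row differed as well. It was 0.84 as deposited, 0.72 with ACTB, 0.81 with RPLP0, 0.42 with GAPDH, 0.29 with YWHAZ and 0.33 with the geometric mean. The counts therefore reflect that spread as well as the change of level.

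The rows most like each gene across the 4 libraries were sought among the common rows by the root mean square difference of log2 FPKM, each row centred on its own mean. ACTB had the most distant nearest row, ENSBTAG00000019588, at 0.11, with 63.9 and 12.4 FPKM in the mammary replicates and 267 and 178 FPKM in the lymphocyte replicates. YWHAZ had the closest, ENSBTAG00000006330, at 0.012, with 33.2 and 11.7 FPKM in mammary tissue and 50.3 and 67.4 FPKM in lymphocytes. The files pair no name with these identifiers. The nearest row lay at 0.029 for GAPDH and at 0.047 for RPLP0. Within 0.25 on this scale lay 1830 common rows for YWHAZ, 489 for GAPDH, 299 for RPLP0 and 20 for ACTB. The profile of YWHAZ was thus shared by many rows and that of ACTB by few. None of the 4 genes was the nearest row of another, and among all other common rows GAPDH came 335th in likeness to ACTB. Likeness over 4 libraries is a description only. A factor common to all rows of a library cancels in these distances, as it does in the pair ratios.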

How the data were processed

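The authors deposited 1 FPKM value per Ensembl gene identifier and library, and the submitters' processing notes name Trimmomatic 0.39, STAR, Cufflinks and the assembly UMD3.1. For their settings, the annotation, strand and multi-mapping reads, the sources used here say nothing. Each of the 4 value columns matched 1 sample title. Replicate numbers follow accession order and pair nothing. The RefSeq table (ARS-UCD2.0, 37063 genes) held 0 Ensembl identifiers, so no coordinates are given, and lists of other reference, glycolysis, 14-3-3 and cell type marker genes could not be matched. Sequences of the 4 genes were not used here.

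FPKM keeps no count. At best 21.4% of 337 mammary and 20.3% of 453 lymphocyte rows below 0.08 FPKM stood on steps of whole fragments (tolerance 0.015 on the log2 scale). Averaged over all positions tried for the steps, the shares were 4.93% and 5.16%. Counts were therefore not recovered, and depth is unknown. Rows that reached 1 FPKM in 2 or more libraries were tested as log2(FPKM + 1) with limma 3.58.1 in R 4.3.3 (two-sided, mean-variance trend, Benjamini-Hochberg over all rows, threshold 0.05, source as the only term). A second fit divided each library by its median over the common rows and multiplied by the mean of the 4 medians. As deposited, limma's prior degrees of freedom were infinite: each row was tested with the spread typical of its level, 0.84 for the median row. In the second fit the prior had 2.37 degrees of freedom and the spread was 0.29. The test was also run on simulated independent normal values with the same spread for all rows and no shift of a library. These data differ in both respects, so that run does not show how reliable the calls in them are. Named rows were the 4 genes and the nearest row of each, of which 2 are printed because the identifiers have no names. The genes and rules were chosen with earlier results of these data known.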

Additional observations from a re-analysis of the deposited data

How the results depend on the processing

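No paired analysis was possible because the titles share no replicate number between sources. As deposited, ACTB was negative in all 12 alternatives and passed in 6, with limma adjusted p from 4.0e-05 to 0.58. It was not called when no filter was applied (-2.95), after median-of-ratios scaling (-1.95) and quantile normalization (-3.05), and leaving out each library gave -3.99 to -1.92. GAPDH (limma adjusted p from 0.0024 to 0.92) passed without the trend (-2.05), after rescaling to a common FPKM total (-2.75) and without mammary replicate 1, with -3.002 to -1.09 over the libraries left out. YWHAZ (0.012 to 0.98) passed only after rescaling to a common total (-2.23), with -2.26 without mammary replicate 1 and -0.81 without mammary replicate 2. RPLP0 (0.096 to 0.99) passed in none and turned to 0.25 after median-of-ratios scaling, with -1.15 and -0.36 without lymphocyte replicates 1 and 2. Relative to the library median, none of the 4 genes passed in any of 10 alternatives. RPLP0 ran from -0.38 to 0.92 over the libraries left out and was -0.060 against the median of rows at 10 FPKM or more. The pair ratios kept their sign with a pseudocount of 1 and without each library, but not their size: over the libraries left out, YWHAZ/RPLP0 ran from -1.53 to -0.07, GAPDH/RPLP0 from -2.26 to -0.35, ACTB/RPLP0 from -3.23 to -1.17, ACTB/YWHAZ from -1.88 to -0.92, ACTB/GAPDH from -1.26 to -0.54 and GAPDH/YWHAZ from -0.73 to -0.28. After median-of-ratios scaling the spread of YWHAZ went from 1.09 to 0.32, a move beyond its replicate spread. That of GAPDH went from 1.43 to 0.66, a similar move that stayed within its own replicate spread. The 2363 rows called as deposited became 5 without the filter, 1370 with a filter at 5 FPKM, 6789 after rescaling to a common total and 102 to 3828 with a library left out. Alternatives chosen after seeing the data gave 5926 divided by ACTB, 3748 by GAPDH and 3872 by the geometric mean. Relative to the median, 2542 rows became 1431 with the filter at 5 FPKM and 0 to 2456 with a library left out. Those 0 calls came from limma without lymphocyte replicate 1 or 2, where the unadjusted p was below 0.05 in 2905 and 3069 rows. In these fits the source with 1 library is taken to vary as the other does.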
